A study of Mus musculus with 2 samples.

Results

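Enteric glia and the crest progenitors that give rise to them are described here through 5 genes chosen by name, Fabp7, Ngfr, Entpd2, S100b and Gfap. All 5 were found among the 43346 genes of the deposited tables. Whole intestine was taken from mouse embryos of strain B6NCrl at 14.5 days, with no transgene, mutation or treatment given in the labels, and its total RNA was sequenced in 2 libraries that form a single group, with 32938592 and 32371363 estimated counts in genes. Each library came from 1 intestine, collected on day 17 (replicate 1) or day 15 (replicate 2) of the same month, and the labels give the sex as pooled although each library is described as 1 intestine. Both libraries carry the same pup number, dam number and donor record under different collection days, so the labels leave unclear how separate the embryos were, and each SD is the spread between these libraries. Embryo, collection day and library cannot be told apart, and there is no contrast between conditions. Values are TPM, transcript abundance per length scaled to a fixed total per library. Detected means TPM 1 or above in each of the libraries, means stand with their SD (n = 2), and the deposited interval is the lower and upper bound that the tables give beside each TPM.

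The enteric nervous system forms from neural crest cells that migrate into and along the gut, multiply, and differentiate into neurons and glia. Migrating crest cells carry the transcription factor Sox10 and the neurotrophin receptor encoded by Ngfr, and the glial branch keeps Sox10 while the neuronal branch loses it. Fabp7 is switched on early in glial precursors, whereas S100b and Gfap are the classic markers of mature glia in the postnatal and adult gut. The libraries hold RNA of the whole organ, so a low level can mean few cells of a type or little RNA per cell, which cannot be told apart in bulk tissue.

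Of the 5 genes, 3 were detected (Fabp7, Ngfr and Entpd2), against 61.3% of nuclear protein-coding genes and 34.2% of all genes at the same threshold. S100b lay at the threshold and Gfap below it, but all 5 had counts in both libraries. The levels ran from 46.5 ± 1.05 TPM for Fabp7 to 0.34 ± 0.17 for Gfap, a ratio of 103 in replicate 1 and 208 in replicate 2. The order Fabp7, Ngfr, Entpd2, S100b, Gfap was the same in both libraries, and in none of the 4 neighbouring pairs did the TPM values of the 2 genes overlap between libraries. The deposited intervals of neighbours were also apart in each library, except for S100b and Gfap in replicate 1. Summed over the 5 genes, the level was 65.4 TPM in replicate 1 and 66.7 in replicate 2, and Fabp7 made up 72.2% and 68.6% of it.

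**Figure D1:**
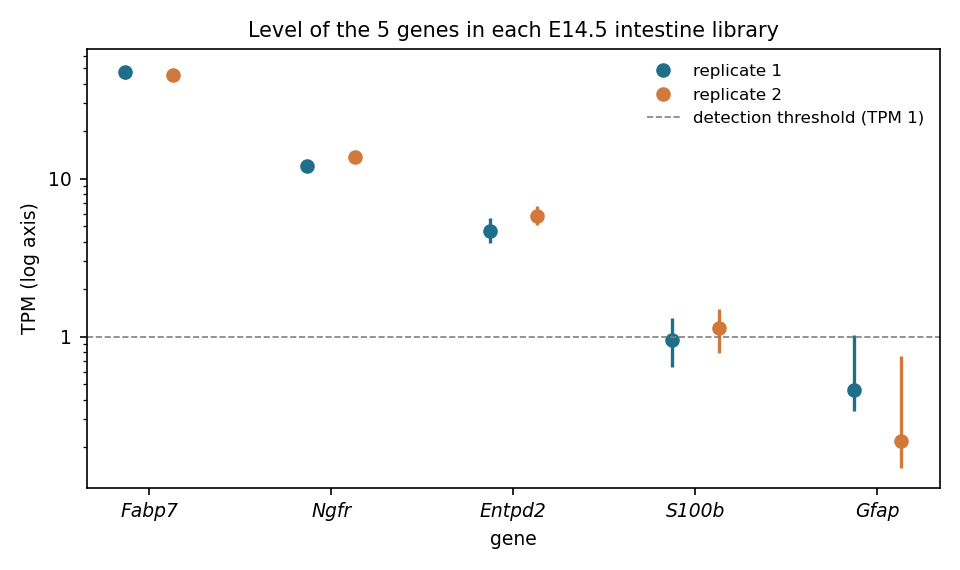
TPM (log axis) of the 5 genes in replicate 1 (blue) and replicate 2 (orange), with the deposited interval of each estimate as a vertical line and the detection threshold of TPM 1 dashed. Fabp7 stands at 47.2 and 45.7 TPM, while S100b straddles the threshold and both Gfap values lie below it.

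Fabp7 encodes the brain-type fatty acid binding protein, a small cytoplasmic carrier of long-chain fatty acids found in radial glia and glial precursors. The gene (ENSMUSG00000019874.7) lies on the plus strand of chromosome 10, from 57784881 to 57788450 in mm10, and no other annotated gene overlaps it. It had 774 counts and 47.2 TPM in replicate 1 (deposited interval 42.9 to 49.4) and 758 counts and 45.7 TPM in replicate 2 (41.5 to 47.9). The libraries thus gave nearly the same value, with a ratio of replicate 2 to replicate 1 of 0.968 and an exact 95% counting interval of 0.875 to 1.07. The deposited posterior SD of its count was 0, as for Ngfr, S100b and Gfap. Its level exceeded that of 84.9% of nuclear protein-coding genes in each library.

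Ngfr encodes p75, the receptor that binds all neurotrophins with low affinity and is widely used to sort and stain migrating crest cells. The gene (ENSMUSG00000000120.6) lies on the minus strand of chromosome 11, from 95568818 to 95587735, with a single transcript model of 6 exons. It had 938 counts and 12.1 TPM in replicate 1 (deposited interval 11 to 12.5) and 1082 counts and 13.8 TPM in replicate 2 (12.7 to 14.2). Ngfr had more counts than Fabp7 and yet a lower level, since its effective length is 3347 bases against 706. It was the only one of the 5 genes whose deposited intervals did not overlap between the libraries, as was the case for 25.2% of the 11324 genes at mean TPM 5 or more and, in the same direction, for 7.23%. The ratio of replicate 2 to replicate 1 was 1.14, with an exact counting interval of 1.04 to 1.25.

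Entpd2 encodes an ectonucleotidase, a membrane enzyme that splits extracellular ATP and is used as a surface marker of enteric glia. The gene (ENSMUSG00000015085.8) lies on the plus strand of chromosome 2, from 25395874 to 25401321. It had 196 counts and 4.66 TPM in replicate 1 (deposited interval 3.95 to 5.63) and 248 counts and 5.83 TPM in replicate 2 (5.07 to 6.74). The deposited intervals overlapped, and the ratio of 1.25 had an exact counting interval of 1.03 to 1.52. Of its 2128 annotated exonic bases, 612 are also exonic in the downstream gene Npdc1 on the same strand, through 2 non-coding Npdc1 models that were given 0 counts in both libraries. Npdc1 as a whole stood at 35.9 and 33.1 TPM. The posterior SD of the count was the same for Entpd2 and Npdc1, 4.16 counts in replicate 1 and 2.94 in replicate 2.

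S100b encodes a calcium-binding protein of the EF-hand class that is abundant in mature enteric glia, Schwann cells and astrocytes. The gene (ENSMUSG00000033208.7) lies on the plus strand of chromosome 10, from 76253853 to 76261159, and has 1 transcript model. It had 31 counts and 0.96 TPM in replicate 1 (deposited interval 0.642 to 1.31) and 37 counts and 1.14 TPM in replicate 2 (0.785 to 1.5). The values fall on either side of the detection threshold, within each other's intervals, so S100b was present at a level that this depth cannot place above or below TPM 1. The antisense gene Dip2a overlaps its span, but no exonic base of S100b is exonic in another gene.

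Gfap encodes the glial fibrillary acidic protein, an intermediate filament of astrocytes and of a share of enteric glia. The gene (ENSMUSG00000020932.10) lies on the minus strand of chromosome 11, from 102887336 to 102900912, inside the span of the antisense lincRNA gene Gm26668, with which it shares no exonic base. It had 27 counts and 0.46 TPM in replicate 1 (deposited interval 0.339 to 1.02) and 13 counts and 0.22 TPM in replicate 2 (0.148 to 0.755). Both counts are above the floor of 3 counts, which for Gfap corresponds to 0.0507 and 0.0501 TPM. At its length TPM 1 would have needed 59.1 counts in replicate 1. The posterior mean TPM was higher than the TPM, at 0.64 and 0.41, and the deposited intervals of the libraries overlapped. The exact counting interval of the ratio of replicate 1 to replicate 2, 1.05 to 4.43 around 2.1, did not include 1. The same held for the intervals of Ngfr and Entpd2. Such an interval covers counting error only, and the share of all genes whose interval leaves out 1 was not counted.

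The DNA just before the start of the highest and of the lowest gene is shown because their levels were farthest apart. Both stretches come from RefSeq promoter windows on GRCm38.p6, cut where the first exon begins, Fabp7 at chr10:57784673-57784880 on the plus strand and Gfap at chr11:102897201-102897450 on the minus strand. The Gfap stretch precedes the models Gfap-201 and Gfap-202 and lies in an intron of Gfap-203, which starts farther upstream. Capitals mark matches to the RBPJ core TGGGAA or its reverse complement TTCCCA, the letters bound by the DNA-binding partner of activated Notch.
Fabp7: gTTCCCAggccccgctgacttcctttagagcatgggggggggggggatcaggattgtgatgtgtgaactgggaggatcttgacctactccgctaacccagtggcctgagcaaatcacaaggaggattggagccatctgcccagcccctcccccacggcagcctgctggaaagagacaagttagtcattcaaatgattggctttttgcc
Gfap: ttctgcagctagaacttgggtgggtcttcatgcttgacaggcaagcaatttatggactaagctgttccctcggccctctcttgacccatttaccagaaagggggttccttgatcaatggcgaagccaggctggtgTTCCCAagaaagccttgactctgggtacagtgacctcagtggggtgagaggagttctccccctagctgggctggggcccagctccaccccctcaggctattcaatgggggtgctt
Within the 300 bases of each window, counted on both strands, this core occurred once in Fabp7, S100b and Gfap and not in Entpd2 or Ngfr, and it occurs in 25.6% of all 32851 windows. The TATA box letters TATAAA (13.6% of windows) and the SOX core letters ACAAAG (18.7%) and ACAATG (12.6%) matched in none of the 5. The highest and the lowest gene thus have the same number of matches, and a match describes letters only.

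Isoform shares, deposited as the percent of a gene's TPM that each transcript model holds, were available for the 3 genes with more than 1 model. Ngfr-201 and S100b-201 are single models and hold the whole of their genes. For Fabp7 and Entpd2, the sequence at the point where the models part is given, with the first 30 bases in lower case from the end of the shared exon after which the models first part and the next 30 in capitals from the exon or intron that follows in that model.
Fabp7-201: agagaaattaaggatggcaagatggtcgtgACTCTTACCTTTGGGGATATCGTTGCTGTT
Fabp7-202: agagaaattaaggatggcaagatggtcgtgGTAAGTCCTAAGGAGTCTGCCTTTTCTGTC
Entpd2-201: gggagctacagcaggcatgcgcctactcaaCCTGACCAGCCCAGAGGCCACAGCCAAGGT
Entpd2-203: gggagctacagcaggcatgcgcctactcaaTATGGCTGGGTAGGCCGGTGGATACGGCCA
Each pair carries the same shared end and different capitals, so reads over these bases separate the models.

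Fabp7 was almost wholly the spliced model of 4 exons. Fabp7-201 held 98.8% in replicate 1 and 99.1% in replicate 2. Fabp7-202, which reads on from the third exon into the intron for 446 bases (57786367 to 57786812), held 1.24% and 0.87%, from 10.6 and 7.27 counts. In Entpd2 the coding model of 9 exons, Entpd2-201, held 84.5% in each library, at 3.93 and 4.92 TPM. The non-coding model Entpd2-203, which lacks an exon of 160 bases (25398291 to 25398450) and keeps an intron of 80 bases (25399537 to 25399616), held 15.5% in each library, from 28.3 and 35.8 counts. The shares of the leading Entpd2 model were identical as deposited, which was so for 10 of 7765 genes (0.129%) with at least 100 counts in both libraries and a leading share between 5% and 95%. The median of these genes was 3.96 percentage points apart. From posterior mean TPM, the Entpd2-201 share was 75.7% and 79.0%.

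Gfap transcripts were assigned almost entirely to Gfap-201, the model of 9 exons, with 93.9% in replicate 1 and 100% in replicate 2. Gfap-202, which ends in an alternative last exon (102890166 to 102891520), had 6.06% in replicate 1 from 1.61 counts and 0 counts in replicate 2, and Gfap-203 had 0 counts in both. These shares rest on 27 and 13 counts, and from posterior mean TPM the Gfap-201 share was 66.5% and 53.0%. The split of Gfap is therefore not resolved at this depth.

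**Figure D2:**
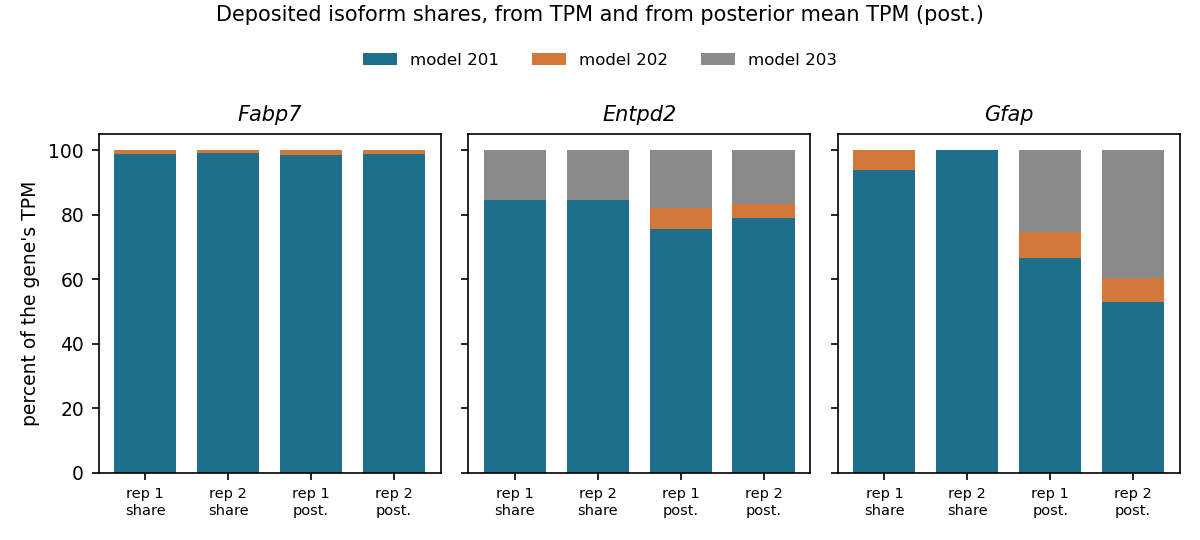
Percent of each gene's TPM held by its transcript models in replicates 1 and 2, as the share from TPM (share) and from posterior mean TPM (post.). The bars of Fabp7 hardly move between estimates, while Gfap-201 falls from 93.9% and 100% to 66.5% and 53.0%.

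Each gene was then placed among its protein family or pathway, where levels can be compared because TPM is per length. Among 14 intracellular fatty acid and retinoid binding genes Fabp7 was sixth, with 8.07% and 7.14% of their summed TPM. Ahead of it stood Fabp5, the epidermal type, at 191 ± 6.63 TPM, and the liver and intestinal types of the epithelium, Fabp1 at 98.6 ± 30.4 and Fabp2 at 89.0 ± 14.1. Fabp1 was at 77.1 TPM in replicate 1 and 120 in replicate 2, an SD larger than that of Fabp7. Pmp2, the myelin member of the family, had 0 counts in both libraries, as had Fabp9 and Fabp12, and Fabp6 had 1 and 3 counts. Of the 13 other genes of this list 9 were detected.

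S100b was twelfth of 16 S100 genes, with 0.0601% and 0.0672% of their summed TPM. S100a11 led at 743 ± 3.37 TPM, 707-fold above S100b, followed by S100a10 at 399 ± 10.2 and S100a6 at 177 ± 9.38, which are expressed in many cell types. Of the 15 others 11 were detected. The 4 under TPM 1 were S100a14 at 0.76 ± 0.0283, S100a3 at 0.35 ± 0.198, S100z at 0.105 ± 0.148 and S100a7a at 0.07 in both libraries.

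Gfap was the lowest of 10 intermediate filament genes. Vim, the filament of mesenchyme and immature glia, was at 421 ± 25.6 TPM, 1238-fold higher, ahead of the muscle filament Des at 57.0 ± 0.099 and the peripheral neuron filament Prph at 39.8 ± 1.99. Of the 9 others 8 were detected, and Nefh, the heavy neurofilament, was at 0.905 ± 0.0495 TPM.

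Entpd2 was seventh of 10 genes for ectonucleotidases and purine partners, all 9 others of which were detected. Entpd6 at 22.9 ± 1.27 TPM, Entpd5 at 15.1 ± 0.127 and Entpd4 at 15.0 ± 0.198, which encode enzymes of the secretory pathway, led the list by mean TPM. The deposited intervals of Entpd4 ran from 6.78 to 28.9 and from 4.53 to 25.1 TPM, so its place in the list is not resolved. In replicate 2 this interval took in that of Entpd2, 5.07 to 6.74. Entpd1, the vascular and immune enzyme of the cell surface, was at 8.41 ± 0.742 TPM. Entpd8, another surface enzyme, was at 5.24 ± 0.7 TPM and did not differ from Entpd2 beyond the spread of the libraries. The level of P2ry1, a receptor for the ADP that such enzymes release, was 10.7 ± 0.919 TPM. Entpd1, Entpd8 and P2ry1 were chosen for mention after their values were seen.

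Among 9 neurotrophin receptor genes Ngfr was second, with 21.1% and 22.8% of their summed TPM. The p75 relative Nradd led at 16.3 ± 0.785 TPM, and the co-receptors Sorcs2 and Sort1 followed Ngfr at 10.7 ± 0.905 and 9.97 ± 1.53. Of the kinase receptors, Ntrk2 was under the threshold at 0.27 ± 0.099 TPM and Ntrk3, the receptor for the Ntf3 product, was above it at 2.77 ± 0.255 (named after its value was seen). All 4 ligand genes were detected, led by Ntf3 at 8.62 ± 1.92 TPM and including Bdnf at 3.56 ± 0.417. All 4 were lower in replicate 2 than in replicate 1, and the share of all genes lower there was not counted. The median log2(TPM + 1) difference over all genes, replicate 2 minus replicate 1, was -0.01 at mean TPM 1 to 5 and -0.05 at 5 to 50. Of the 8 receptor genes other than Ngfr, 5 were higher and 3 lower in replicate 2. None of the 4 ligand genes passed the difference rule given below, whose minimum level only Ntf3 reached. The genes for 3 intracellular partners of p75 were all detected, Maged1 at 441 ± 34.8 TPM, Bex3 at 380 ± 26.3 and Traf6 at 11.6 ± 0.877.

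**Figure D3:**
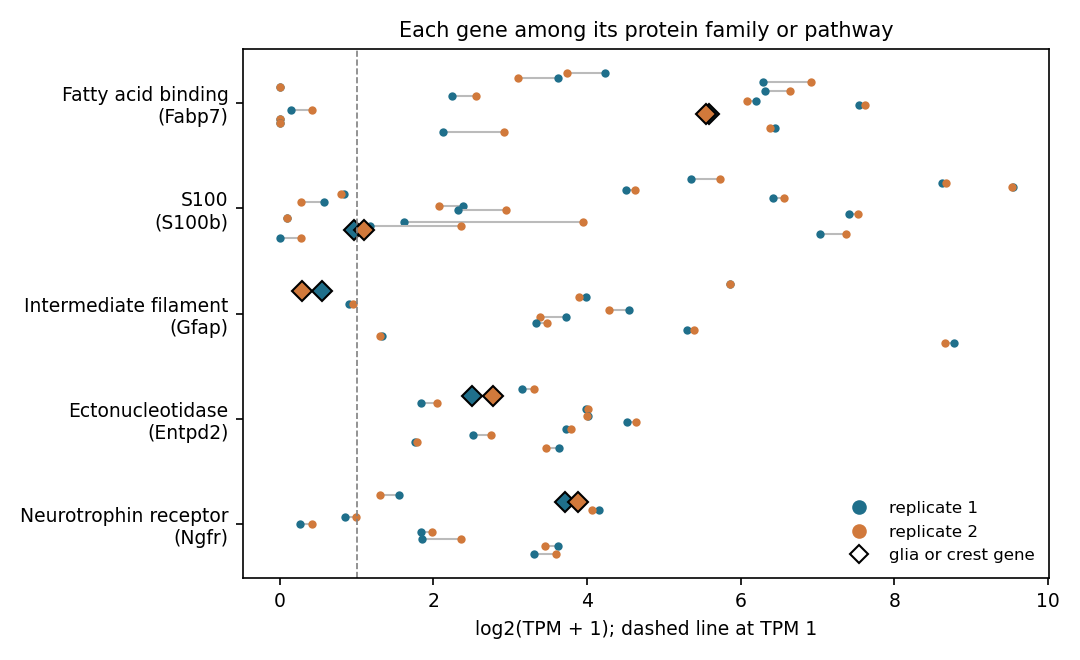
log2(TPM + 1) of the genes of 5 families or pathways, with 1 row of points per gene, replicate 1 in blue and replicate 2 in orange, joined by a line, and the glia or crest gene of each family as diamonds. Fabp7 and Ngfr lie in the upper part of their families, S100b at TPM 1 (dashed line) and Gfap lowest among the filaments.

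Genes of the same lineage and of other cell types that share markers with it were compared on the same scale. Of 14 other genes of crest progenitors and enteric glia 9 were detected, with a median of 3.46 TPM in replicate 1 and 3.16 in replicate 2, against medians of 4.82 and 4.86 over nuclear protein-coding genes. The endothelin receptor gene Ednrb led at 140 ± 14.8 TPM, followed by Zeb2 at 36.1 ± 2.39 and the neuregulin receptor gene Erbb3 at 24.9 ± 0.785. The defining factor Sox10, named here after its value was seen, was at 13.3 TPM in both libraries. Per unit of Sox10, Fabp7 stood at 3.54 and 3.44, Ngfr at 0.906 and 1.04, Entpd2 at 0.35 and 0.439, S100b at 0.0721 and 0.0858 and Gfap at 0.0345 and 0.0166. The crest factor gene Foxd3, also chosen after its value was seen, was at 1.04 ± 0.0495 TPM. The genes of this list that were not detected included Sox2 at 0.37 ± 0.0849 TPM, Gpr37l1 at 0.335 ± 0.0919 and Tfap2a at 0.265 ± 0.00707. The others were Tfap2b at 0.025 ± 0.0354 TPM and Pax3 at 0.005 ± 0.00707. These undetected genes were likewise named after their values were seen.

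All 12 genes of enteric neurons and their precursors were detected, at medians of 37.1 and 36.9 TPM. Gap43, Uchl1 and Tubb3, which serve axon growth, protein turnover and the neuronal cytoskeleton, were at 84.2 ± 4.09, 81.0 ± 4.33 and 78.9 ± 2.63 TPM, each above Fabp7. All 9 genes of neuregulin and Notch signals, which act on glial precursors among many other cells, were detected as well, with Hes1 at 50.3 ± 3.2, Rbpj at 33.0 ± 5.28 and Erbb2 at 27.0 ± 1.17 TPM.

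Markers of other cells that express the same genes were summed and counted in the same way. Of 10 Schwann cell and myelin genes 4 were detected. Pmp22 at 98.8 ± 7.76 TPM, Gjb1 at 13.7 ± 3.84 and Mbp at 13.6 ± 0.467 led them, and Prx, which encodes the myelin protein periaxin and is named after its value was seen, was at 1.21 ± 0.0424. The summed TPM of the Schwann list was 132 and 127, beside 260 and 232 for the crest and enteric glia list. Most of each sum came from 1 gene, with Pmp22 at 104 and 93.3 TPM and Ednrb at 151 and 130. The sums therefore do not compare the lists as wholes. The medians were 0.645 and 0.565 TPM for the Schwann list against 3.46 and 3.16. Of 8 astrocyte and radial glia genes 3 were detected, Slc1a3 at 8.25 ± 1.15, Aldh1l1 at 5.19 ± 1.62 and Hes5 at 1.59 ± 0.283 TPM, with summed TPM of 15.7 and 18.6 and Olig2 at 0 counts in both libraries. By posterior mean TPM 5 of the 8 were detected, and at TPM 5 only 1 was. None of 6 melanocyte genes was detected, with means of 0.94 ± 0.17 TPM for Mitf, 0.765 ± 0.0212 for Pmel and 0.465 ± 0.177 for Dct, summed TPM of 2.22 and 2.25 and Tyrp1 at 0 counts. The deposited intervals of Mitf ran from 0.991 to 64.2 and from 0.875 to 63.4, so its level is not resolved, and by posterior mean TPM 1 of the 6 was detected. Olig2 and Tyrp1 were named after their values were seen. In replicate 2 alone 5 of the astrocyte genes reached TPM 1, and in replicate 1 alone 1 of the melanocyte genes did, Mitf at 1.06.

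**Figure D4:**
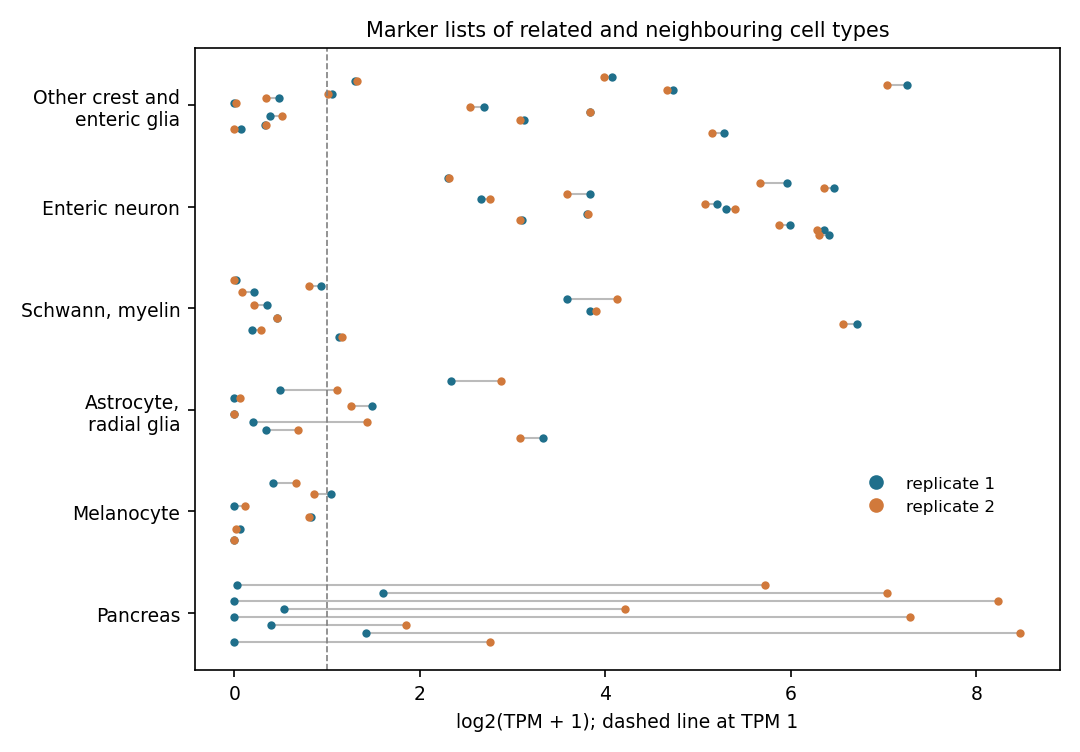
log2(TPM + 1) of 6 marker lists, with 1 row of points per gene, replicate 1 in blue and replicate 2 in orange, and TPM 1 dashed. The enteric neuron genes all lie to the right of the line, the melanocyte genes lie left of it apart from Mitf in replicate 1, and the pancreas genes differ between the libraries.

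Between the libraries, Gfap had the largest ratio of counts (27 against 13) and Fabp7 the smallest change. The log2(TPM + 1) difference, replicate 2 minus replicate 1, was 0.27 for Entpd2, 0.18 for Ngfr, 0.13 for S100b, -0.04 for Fabp7 and -0.26 for Gfap, so 3 genes were higher and 2 lower in replicate 2. At the level of Gfap the pseudocount of 1 makes this difference small beside the ratio of 2.1 given above. A gene was said to differ when its mean TPM was at least 5, this difference was at least 1 in size and its deposited intervals were apart. By this rule 0.495% of 11324 genes differed, and none of the 3 genes with sufficient level (Fabp7, Ngfr and Entpd2) did. S100b and Gfap are under its minimum and were not judged by it. The robust SD of the difference over all genes was 0.165 at mean TPM 5 to 50, 0.277 at 1 to 5 and 0.25 below 1. The differences of Ngfr and Gfap lay just above this SD in size and that of Entpd2 farther above it. Those of Fabp7 and S100b were smaller than it. The share of all genes beyond this SD was not counted, so none of the 5 genes is called unusual by it. With 1 library on each side there is no replicate check of such a difference.

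Pancreas genes, which mark a neighbouring organ, stood apart in replicate 2. All 8 of that list were higher there, 6 of them by the rule above, and 2 reached TPM 1 in replicate 1, with summed TPM of 4.49 in replicate 1 and 1019 in replicate 2, led by Pnliprp1 at 1.67 and 355 TPM, Ctrb1 at 0 and 300 and Ins2 at 0 and 155. In the same libraries Sox10 had 809 and 816 counts. The part of pancreatic tissue in the small differences of Ngfr, Entpd2 and S100b was not tested.

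**Figure D5:**
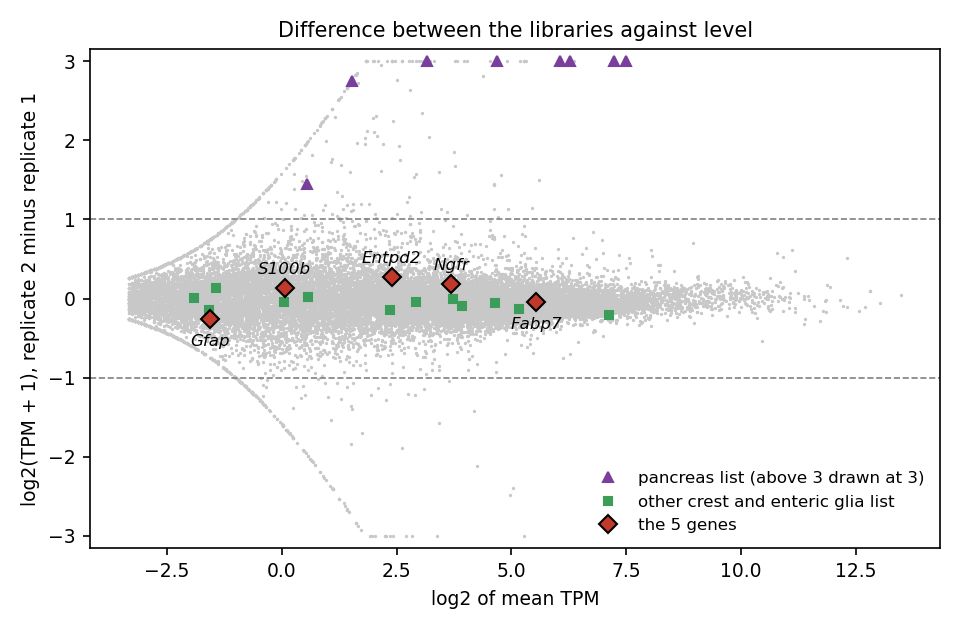
Difference in log2(TPM + 1), replicate 2 minus replicate 1, against the log2 of mean TPM for genes with a symbol and a mean TPM of at least 0.1 (grey), with the 5 genes (red), the other crest and enteric glia list (green) and the pancreas list (purple), where differences beyond 3 are drawn at 3. The 5 genes lie between -0.26 and 0.27, inside the dashed lines at a difference of 1 in either direction.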

How the data were processed

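Total RNA longer than 200 nucleotides, 10 ng per library, was sequenced from 2 intestines, which the labels number as replicates 1 and 2. The notes deposited beside the tables name mm10 and GENCODE M4, and each library has tables of its own. The quantifier and strandedness were not given in the sources used here. The authors deposited estimated counts for genes and for transcripts, beside TPM and FPKM values over all features, among them 96 spike-ins holding 4.54% and 4.91% of all counts. Isoform shares were deposited as percent. Posterior mean TPM and interval bounds were deposited by the authors and are taken here as scores. The level of the intervals is not stated.

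Genes were matched by identifier to GENCODE M21 on GRCm38 (42462 of 43346 matched). Sequences came from RefSeq windows on GRCm38.p6 and GENCODE M21 transcripts. Gene tables held 32938592 and 32371363 estimated counts in genes, and exact 95% intervals and the floor of 3 counts cover counting error only. The members and lists (14 lists, 133 entries) were chosen with earlier results of these data known. Text names all 5 members, the 3 highest of each list and, where at most 4 exist, those under TPM 1. Genes chosen otherwise are marked. Some genes and sequences that this rule covers are not reported here. Alternatives used edgeR 4.0.16 and DESeq2 1.42.0 only to scale estimated counts rounded to whole numbers.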

Additional observations from a re-analysis of the deposited data

How the results depend on the processing

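No paired analysis was possible because the series has a single group with 1 library per replicate number. The number of detected genes among the 5 was 3 to 4 when either replicate was left out, 4 at TPM 0.5, 2 at TPM 5, and 5 when an estimated count of 10 in both libraries was asked for. With TPM rescaled over nuclear protein-coding genes this number was 4. TPM rescaled over nuclear protein-coding genes moved the mean levels to 60.9 for Fabp7, 16.9 for Ngfr, 6.87 for Entpd2 and 1.38 for S100b, by construction of that scale. By posterior mean TPM the mean Gfap level was 0.525, and the mean shares of Entpd2-201 and Gfap-201 fell to 77.4% and 59.8%, an alternative chosen after seeing the data, and the cause was not tested. The order of the 5 genes was the same by FPKM, by posterior mean TPM and in each library. Fabp7, Ngfr and Entpd2 did not pass the difference rule under a pseudocount of 0.1, posterior mean TPM, no minimum on mean TPM, or TMM, DESeq2 or spike-in scaling, which shift replicate 2 by 0.05, 0.05 and -0.08 on the log2 scale. S100b and Gfap were under the minimum in all but the setting without it, and there the Gfap values are too low to reach a difference of 1, so the rule says nothing of Gfap. Without the minimum 116 genes of all differed in place of 56. Depth limits S100b and Gfap most, with 13 to 37 counts per library.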

Other observations

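Within the families of the 5 genes, the one gene that passed the difference rule was S100a8, which encodes a calcium-binding protein of neutrophils and other myeloid cells, with 14 counts and 2.06 TPM in replicate 1 and 100 counts and 14.5 TPM in replicate 2. Its partner gene S100a9 had 12 and 40 counts, at 1.25 and 4.12 TPM. Among the astrocyte and radial glia list, Pax6, which is also a gene of endocrine cells, had 7 and 63 counts, and the water channel gene Aqp4 had 47 and 135 counts, both higher in replicate 2. The retinoic acid binding genes Crabp1 and Crabp2 were lower in replicate 2, at 17.8 and 12.4 TPM and at 11.3 and 7.57 TPM. These genes were chosen after their values were seen, and no cause was tested.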
